A study of Rattus norvegicus with 10 samples.

Results

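Keratins are the intermediate filament proteins of epithelial cells, and 10 of their genes were examined here in the rat nasal epithelium after N,N-dimethyl-p-toluidine (DMPT): Krt5, Krt14, Krt15 and Krt17 of basal cells, Krt7, Krt8, Krt18 and Krt19 of simple or luminal cells, and Krt4 and Krt13 of non-keratinising squamous epithelium. They were chosen by name, as the probe sets to which the array annotation gives one of these symbols and no other. Earlier results of these data were known when the names were chosen. Each of the 10 had 1 probe set, so 10 of 14217 named genes, or 10 of 31042 probe sets, are described. The animals were male F344/N rats aged 5 to 6 weeks at the start. The DMPT group received 120 mg/kg/day in corn oil by gavage on 5 consecutive days, and the vehicle group received corn oil alone on the same schedule. DMPT is an aromatic amine used to speed the setting of acrylic cements. Transitional epithelium of the nasal cavity was cut out by laser capture microdissection, its RNA was amplified, and 1 array was run for each of 5 animals per group.

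Keratins fall into type I (acidic) and type II (basic) proteins, and a filament needs both, since its building block is a pair of one type I and one type II chain. The pairs mark the state of the cell. Krt5 with Krt14 forms the filaments of basal cells, with Krt15 as a further basal type I chain. Krt8 with Krt18 does so in simple epithelium, often together with Krt7 and Krt19. Krt4 with Krt13 is made above the basal layer of internal squamous mucosa. Krt17 is a type I keratin of basal and appendage cells that is also induced in injured epithelium. The transitional epithelium of the nose is a thin cuboidal lining between its squamous and respiratory parts.

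Promoters are shown as background, and any part of them in the keratin changes was not tested. Of the 10 keratins, 4 had a promoter in the RefSeq-derived table (assembly GRCr8), each covering 250 bases before to 50 bases after the annotated start. There was none for Krt7, Krt13, Krt14, Krt15, Krt17 or Krt19, so Krt8 and Krt18 are the only complete filament pair. Krt8 and Krt18 are printed together because they are a filament pair and because no other protein-coding gene lies between them in that assembly. The sequences run 5′ to 3′ along the gene, and capitals mark the motif matches described after them.
Krt4, GRCr8 chr7:134930664-134930963, minus strand: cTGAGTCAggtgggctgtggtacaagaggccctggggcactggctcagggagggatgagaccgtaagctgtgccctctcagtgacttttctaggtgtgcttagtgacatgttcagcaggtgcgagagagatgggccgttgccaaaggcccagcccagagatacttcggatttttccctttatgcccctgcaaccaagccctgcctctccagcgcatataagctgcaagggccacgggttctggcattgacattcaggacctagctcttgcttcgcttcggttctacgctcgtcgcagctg
Krt5, GRCr8 chr7:134730520-134730819, minus strand: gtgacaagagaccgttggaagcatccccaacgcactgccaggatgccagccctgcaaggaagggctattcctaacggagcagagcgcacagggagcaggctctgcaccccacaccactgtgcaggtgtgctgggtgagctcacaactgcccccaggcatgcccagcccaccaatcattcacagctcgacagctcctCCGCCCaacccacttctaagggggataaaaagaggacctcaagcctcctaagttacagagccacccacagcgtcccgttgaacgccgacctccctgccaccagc
Krt8, GRCr8 chr7:135010290-135010589, minus strand: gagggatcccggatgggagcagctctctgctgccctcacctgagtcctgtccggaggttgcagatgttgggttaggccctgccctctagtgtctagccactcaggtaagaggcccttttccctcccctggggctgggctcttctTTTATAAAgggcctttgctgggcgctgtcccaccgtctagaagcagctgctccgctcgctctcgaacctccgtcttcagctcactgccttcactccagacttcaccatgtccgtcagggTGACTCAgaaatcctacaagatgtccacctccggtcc
Krt18, GRCr8 chr7:135035918-135036217, plus strand: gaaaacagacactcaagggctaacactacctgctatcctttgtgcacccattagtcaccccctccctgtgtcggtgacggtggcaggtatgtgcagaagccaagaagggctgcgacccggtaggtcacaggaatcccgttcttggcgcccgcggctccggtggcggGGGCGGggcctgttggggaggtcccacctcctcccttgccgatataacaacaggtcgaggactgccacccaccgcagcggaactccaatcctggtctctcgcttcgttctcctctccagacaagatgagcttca
Motifs were searched on both strands as exact letters. The AP-1 motif (TGACTCA or TGAGTCA, each the reverse complement of the other) was found at bases 2 to 8 of the Krt4 window. It was also found at bases 264 to 270 of the Krt8 window. That Krt8 match lies within the 50 bases after the annotated start and not upstream of it. It occurred in 4.63% of 33469 promoters of that length. The TATA box letters (TATAAA) were found on both strands of the Krt8 window, in overlapping matches that begin at bases 145 and 147, and occurred in 14.2% of promoters. The GC box letters (GGGCGG) were found at bases 167 to 172 of the Krt18 window and, on the other strand, at bases 197 to 202 of the Krt5 window, and occurred in 33.1% of promoters. The core of the antioxidant response element (TGACNNNGC), which can overlap an AP-1 match, was in none of the 4 windows and in 12.1% of promoters. These are matches of letters and not measured binding sites.

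Values are RMA expression values on the log2 scale, on which 1 unit is a 2-fold change, and differences are DMPT minus vehicle with the standard error of the limma fit after ±. A gene was counted as changed at a Benjamini-Hochberg adjusted p below 0.05 over all 31042 probe sets. The array medians lay between 8.21 and 8.35. Vehicle replicate 2 stood apart from the other vehicle arrays, with the lowest mean correlation with its own group of the 10 arrays (0.9745), and results that rest on it are given with and without it. RNA quality, as the 3′ minus 5′ difference of the GAPDH and actin control probe sets, lay between 0.87 and 1.30 in the DMPT arrays and between 1.17 and 1.5 in the vehicle arrays (two-sided exact permutation test, p = 0.143). The general epithelial genes Epcam and Cdh1 were bright, with vehicle means of 13.59 and 13.18, and differed by -0.07 ± 0.09 and 0.00011 ± 0.075 (limma adjusted p = 0.691 and 1.00).

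After DMPT, 4 of the 10 keratins were higher and 0 were lower: squamous Krt4, basal Krt5, and simple Krt7 and Krt8. All 4 are type II keratins. Of the 6 type I keratins, Krt13, Krt14, Krt15, Krt17, Krt18 and Krt19, 0 passed the limma test, while 2 of them, Krt13 and Krt17, had an unadjusted p below 0.05. At that unadjusted threshold 0 of the 10 were lower. Among all probe sets 5.37% were called higher and 5.74% lower, and among all named genes 7.13% and 6.77%. The keratins were chosen with earlier results of these data known, so this contrast is not independent support. The median difference was 0.48 over the 10 keratins and -0.02 over all probe sets, and all 10 differences lay above 0, against 14501 of 31042 over the array. By class, 1 of 4 basal, 2 of 4 simple and 1 of 2 squamous keratins were higher, with median differences of 0.37, 0.35 and 1.81. The same number, 4, was higher without vehicle replicate 2 and DMPT replicate 1 together, an omission chosen after seeing the data.

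**Figure D1:**
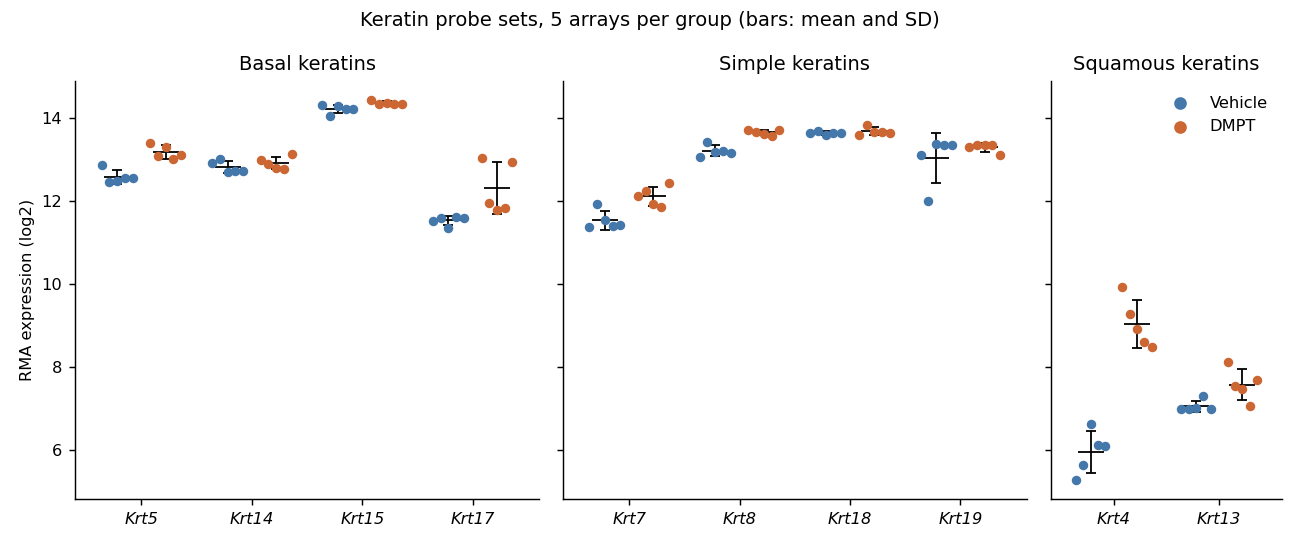
RMA expression (log2) of the 10 keratins in each of the 5 vehicle and 5 DMPT arrays, in panels for basal, simple and squamous keratins, with bars for the mean and SD. Krt4 moved from between 5.28 and 6.63 with vehicle to between 8.48 and 9.92 after DMPT, while the mean differences of the other keratins were below 1 unit.

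Krt4, the type II keratin of squamous mucosa, read 5.28, 5.64, 6.63, 6.11 and 6.09 in vehicle replicates 1 to 5 and 9.92, 9.27, 8.92, 8.61 and 8.48 in DMPT replicates 1 to 5. All 5 DMPT arrays lay above all vehicle arrays, by well over the spread within either group. The mean went from 5.95 ± 0.51 (SD, n = 5) to 9.04 ± 0.58 (SD, n = 5), a rise of 3.09 ± 0.29 (limma, adjusted p = 8.89e-05), and 12 probe sets on the array rose more. On the linear scale this is 8.54-fold, but the vehicle mean lay below the lower quartile of every array (6.37 to 6.51), so the size of the rise is uncertain. Leaving out each array in turn gave 2.87 to 3.26.

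Krt13, the type I partner of Krt4, read 6.99, 7.00, 7.02, 7.29 and 6.99 with vehicle and 8.11, 7.53, 7.48, 7.06 and 7.68 after DMPT, in replicate order. In 4 of 5 DMPT arrays it lay above all vehicle arrays, and DMPT replicate 4 stayed within their range. The difference of 0.52 ± 0.16 did not pass (limma, adjusted p = 0.0664). Without DMPT replicate 4 it was 0.64 (adjusted p = 0.0203), and without DMPT replicate 1 it was 0.38 (adjusted p = 0.108).

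Krt5, the type II keratin of basal cells, read 12.86, 12.45, 12.49, 12.55 and 12.55 with vehicle and 13.40, 13.08, 13.31, 13.02 and 13.10 after DMPT. The groups did not overlap, which held for 5.82% of probe sets in this direction. It rose by 0.60 ± 0.11, or 1.52-fold (limma, adjusted p = 0.00537), and by 0.55 to 0.67 when each array was left out. Its partner Krt14 read 12.92, 13.02, 12.70, 12.73 and 12.71 with vehicle and 12.99, 12.89, 12.79, 12.77 and 13.12 after DMPT. The groups of Krt14 overlapped, and its difference was 0.10 ± 0.10 (limma, adjusted p = 0.637) with a 95% interval from -0.13 to 0.32. It was 0.15 without vehicle replicate 2 and 0.04 without DMPT replicate 5.

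Krt15, the other basal type I keratin, read 14.31, 14.05, 14.29, 14.21 and 14.22 with vehicle and 14.43, 14.33, 14.37, 14.32 and 14.34 after DMPT. All 5 DMPT values lay above the vehicle values, but the gap was small and the difference of 0.14 ± 0.08 did not pass (limma, adjusted p = 0.316). The brightest probe sets of the arrays lay between 14.60 and 14.86. Whether a rise was compressed so near the top of the range was not tested.

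Krt17, the injury-induced type I keratin, read 11.52, 11.59, 11.36, 11.61 and 11.59 with vehicle and 13.05, 11.94, 11.77, 11.83 and 12.94 after DMPT. All 5 DMPT animals lay above the vehicle animals, but replicates 1 and 5 stood well above the other 3. The SD was 0.10 with vehicle and 0.63 after DMPT, and the difference of 0.77 ± 0.25 did not pass (limma, adjusted p = 0.0683). The same 2 animals had the highest DMPT values of Krt13. They also had the highest mean log2 level over 8 squamous marker genes, 8.03 and 7.89, against 7.32 to 7.65 in the other DMPT animals and 6.61 to 6.94 with vehicle. That mean leans on Sprr1a, which differed by 4.81 between the groups and read 13.22 and 12.93 in these 2 animals. The median of the 8 differences was 0.20, and 6 of the 8 genes did not pass. The RNA ratios of the same 2 animals, 0.97 and 0.87, were the lowest of the 10 arrays. With that ratio added to the model, the difference of Krt17 was 0.43 (adjusted p = 0.327) and that of Krt13 was 0.39 (adjusted p = 0.264).

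**Figure D2:**
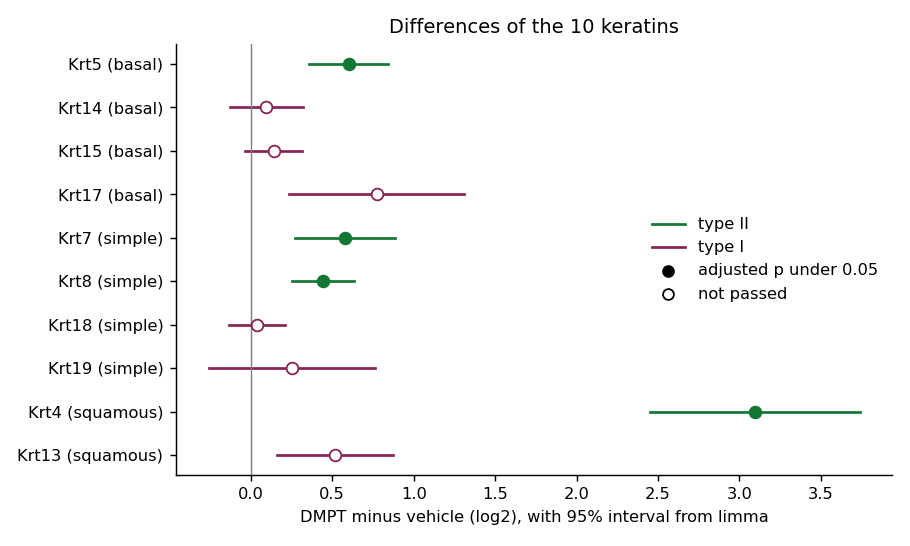
Difference between the groups (DMPT minus vehicle, log2) for each keratin, with the 95% interval of the limma fit, coloured by keratin type. Filled points passed at an adjusted p under 0.05: the type II keratins Krt5, Krt7, Krt8 and Krt4.

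Krt8, the type II keratin of simple epithelium, read 13.06, 13.42, 13.18, 13.21 and 13.17 with vehicle and 13.70, 13.65, 13.62, 13.56 and 13.72 after DMPT. The groups did not overlap. It rose by 0.44 ± 0.09, or 1.36-fold (limma, adjusted p = 0.00831), with 0.41 to 0.50 when each array was left out. Its partner Krt18 read 13.63, 13.69, 13.59, 13.63 and 13.64 with vehicle and 13.58, 13.83, 13.66, 13.67 and 13.64 after DMPT. Krt18 had the smallest difference of the 10 keratins, 0.04 ± 0.08 (limma, adjusted p = 0.820), with a 95% interval from -0.13 to 0.21. Omitting DMPT replicate 2 gave 0.00010, and omitting DMPT replicate 1 gave 0.06.

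Krt7, a type II keratin of simple and glandular epithelium, read 11.36, 11.93, 11.54, 11.40 and 11.42 with vehicle and 12.11, 12.24, 11.92, 11.85 and 12.43 after DMPT. The groups overlapped through vehicle replicate 2, and 3 of 5 DMPT arrays lay above all vehicle arrays. It rose by 0.58 ± 0.14, or 1.49-fold (limma, adjusted p = 0.0217). The call was lost without vehicle replicate 1 or 4 or DMPT replicate 2 or 5 (adjusted p between 0.0512 and 0.0524) and when the RNA ratio was added to the model (0.61, adjusted p = 0.0572). Without vehicle replicate 2 the rise was 0.68 (adjusted p = 0.00471).

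Krt19, the type I keratin found in both basal and luminal cells of many ducts, read 13.11, 11.99, 13.37, 13.35 and 13.36 with vehicle and 13.29, 13.35, 13.35, 13.35 and 13.10 after DMPT. Vehicle replicate 2 lay more than 1 unit below the other 9 arrays, which stayed between 13.10 and 13.37. The difference was 0.25 ± 0.23 with all arrays (limma, adjusted p = 0.572) and -0.0087 without vehicle replicate 2 (adjusted p = 0.970).

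Whether 2 keratins changed unequally was tested on their log2 ratio within each array, over 10 pairs, by a two-sided exact permutation test over all labelings of 5 against 5 arrays. The smallest p it can give is 0.00794, which is 0.0159 after adjustment over the 10 pairs. Of the 10 pairs, 6 passed. These are not separate results, since the pairs of Krt4 with Krt13, Krt5 and Krt8 all share the rise of Krt4. The share of unequal pairs among other genes was not tested. In 3 of the 4 filament pairs the type II partner rose more than the type I partner. No pair held the type I keratins Krt15 or Krt17. The difference of Krt17, 0.77, did not pass but was larger than those of Krt5 (0.60), Krt7 (0.58) and Krt8 (0.44). The ratio of Krt5 to Krt14 rose by 0.50 (95% interval by inversion of the test 0.20 to 0.82), that of Krt8 to Krt18 by 0.40 (0.23 to 0.59) and that of Krt4 to Krt13 by 2.58 (1.92 to 3.21), each with an exact adjusted p of 0.0159. In all 3 pairs every DMPT array lay above every vehicle array.

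Set to the vehicle mean, the Krt8 to Krt18 ratio was -0.14, 0.16, 0.02, 0.01 and -0.04 with vehicle and 0.55, 0.25, 0.39, 0.32 and 0.51 after DMPT. That of Krt5 to Krt14 was 0.18, -0.34, 0.03, 0.06 and 0.07 with vehicle and 0.65, 0.43, 0.75, 0.48 and 0.22 after DMPT, so that DMPT replicate 5 came close to vehicle replicate 1. The calls of these 3 pairs were kept when each array was left out. The ratio of Krt7 to Krt19 rose by 0.33, with an interval from -0.55 to 1.01 and an exact adjusted p of 0.485. Without vehicle replicate 2, where Krt19 was low, it was 0.69 (exact adjusted p = 0.0265). A changed ratio shows unequal change of the probe set values and does not show that one partner stayed the same. Changes of very dim and very bright probe sets can be compressed on arrays, and the part of this in the ratios was not tested.

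**Figure D3:**
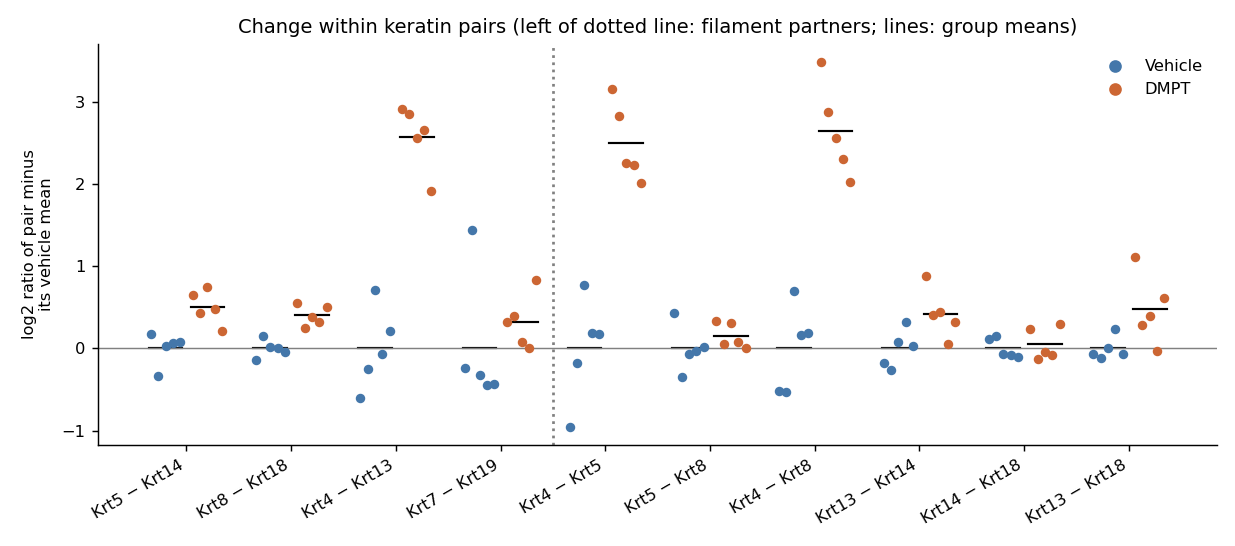
Log2 ratio of each keratin pair minus its vehicle mean, for 5 vehicle and 5 DMPT arrays, with lines at the group means and the 4 filament pairs left of the dotted line. The DMPT arrays lay above all vehicle arrays for Krt5 to Krt14, Krt8 to Krt18 and Krt4 to Krt13, and vehicle replicate 2 stood alone at 1.44 for Krt7 to Krt19.

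Between classes, squamous Krt4 rose more than basal Krt5 by 2.49 (interval 1.66 to 3.33) and more than simple Krt8 by 2.65 (1.85 to 3.40), each with an exact adjusted p of 0.0159. Basal Krt5 and simple Krt8 differed in their change by 0.16, with an interval from -0.17 to 0.43 and an exact adjusted p of 0.367. Without vehicle replicate 1 this difference was 0.27 (exact adjusted p = 0.0397). Omitting vehicle replicate 2 gave 0.07 (exact adjusted p = 0.627). Among the type I keratins, Krt13 rose relative to Krt18 by 0.48 (interval 0.04 to 0.95, exact adjusted p = 0.0397), a call that was lost without any one of 8 of the 10 arrays, with 0.32 without DMPT replicate 1. Krt13 against Krt14 gave 0.42 (exact adjusted p = 0.0567), and this passed without vehicle replicate 4 (0.50) or DMPT replicate 4 (0.51), with an exact adjusted p of 0.0340 for each. Basal Krt14 and simple Krt18 differed in their change by 0.06 (interval -0.19 to 0.34, exact adjusted p = 0.587), and by -0.0039 to 0.10 when each array was left out.

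The DMPT animals did not rank alike for all keratins. DMPT replicate 1 had the highest DMPT value of 5 keratins (Krt4, Krt5, Krt13, Krt15 and Krt17), replicate 5 of Krt7, Krt8 and Krt14, and replicate 2 of Krt18 and Krt19. Replicates 3 and 4 were highest for none. The keratins highest in replicate 1 were basal or squamous ones, and the simple keratins and basal Krt14 were highest in other animals. The margin could be small: Krt8 read 13.72 in replicate 5 and 13.70 in replicate 1.

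**Figure D4:**
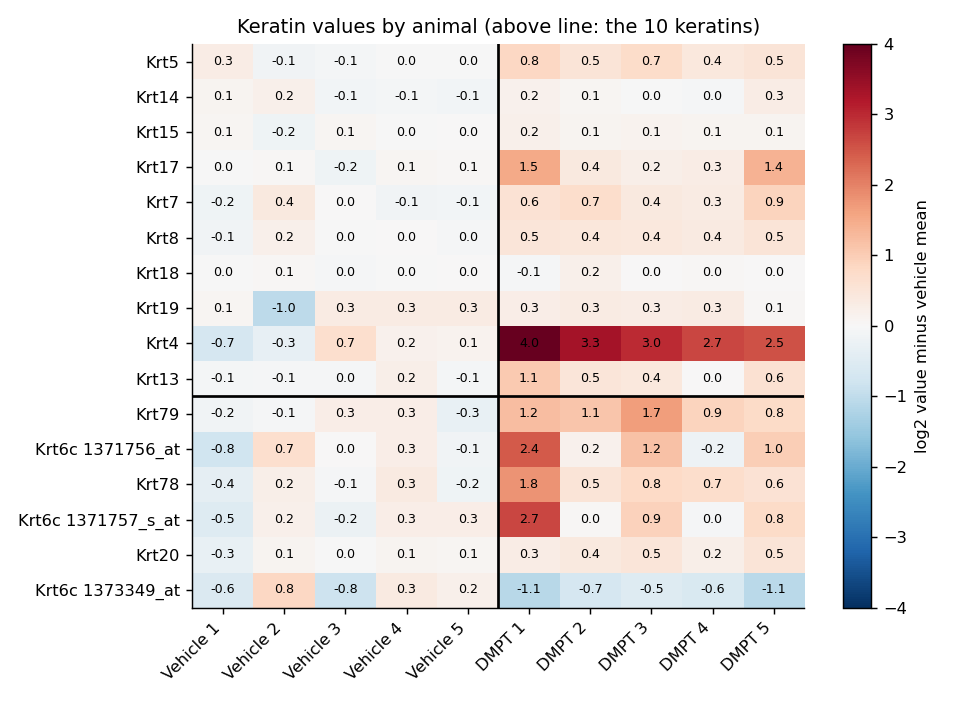
Log2 value minus the vehicle mean for the 10 keratins (above the horizontal line), the other keratins that passed and the 3 Krt6c probe sets, in each animal. Krt4 was above its vehicle mean in every DMPT animal, Krt17 and 2 of the Krt6c probe sets were highest in DMPT replicate 1, and Krt19 was low in vehicle replicate 2.

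Of the 15 other keratin genes on the array, which had 17 probe sets, 3 were higher and 0 lower, where 7.13% and 6.77% of all named genes were called. Krt79, a type II keratin of sebaceous and hair canal epithelium, read 6.44, 6.53, 6.84, 6.86 and 6.28 with vehicle and 7.82, 7.71, 8.25, 7.48 and 7.37 after DMPT. Its groups did not overlap and it rose by 1.14 ± 0.17 (limma, adjusted p = 0.00174), also without each array in turn. The type II gene Krt78 rose by 0.88 ± 0.23 (adjusted p = 0.0315) and the intestinal and urothelial type I gene Krt20 by 0.38 ± 0.11 (adjusted p = 0.0380). Both were dim with vehicle, at 5.94 and 6.37, the latter just below the lowest of the arrays' lower quartiles, so the sizes of their rises are uncertain. The call of Krt78 was lost without vehicle replicate 1, 3 or 5 or DMPT replicate 3 or 4, with values from 0.65 to 0.97 over all omissions. That of Krt20 was lost without vehicle replicate 1, 3 or 5 or DMPT replicate 1, 2, 3 or 5, with values from 0.31 to 0.42. Adding the RNA ratio to the model also ended both calls. The number of higher genes was 1 without vehicle replicate 1, 3 or 5 or DMPT replicate 3, and 2 without DMPT replicate 1, 2 or 5. At an unadjusted limma p below 0.05, 1 of the 15 genes, Krt10, was lower.

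Krt6c, a type II keratin of the injury-responsive family, had 3 probe sets that disagreed. Probe set 1371756_at read 9.07, 10.55, 9.89, 10.12 and 9.73 with vehicle and 12.31, 10.03, 11.06, 9.66 and 10.85 after DMPT. DMPT replicate 1 was the highest of the 10 arrays, and DMPT replicates 2 and 4 lay within the vehicle range. Its difference was 0.91 ± 0.44 and that of 1371757_s_at was 0.87 ± 0.43, whereas 1373349_at differed by -0.79 ± 0.28 (limma, adjusted p = 0.227, 0.244 and 0.1003). Without DMPT replicate 1 the difference of 1371756_at was 0.53, and the mean of the 3 probe sets differed by 0.33 (limma, adjusted p = 0.408 and 0.569). Near-identical copies of this family and the shared probes that the suffix _s_at marks leave it uncertain which transcripts these probe sets read. The epidermal keratins Krt1 and Krt10 differed by 0.61 ± 0.22 and -0.52 ± 0.16 and did not pass (limma, adjusted p = 0.105 and 0.0660). Krt10 passed as lower without vehicle replicate 4 (-0.64, adjusted p = 0.0205) and with array weights (-0.48, adjusted p = 0.0369).

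**Figure D5:**
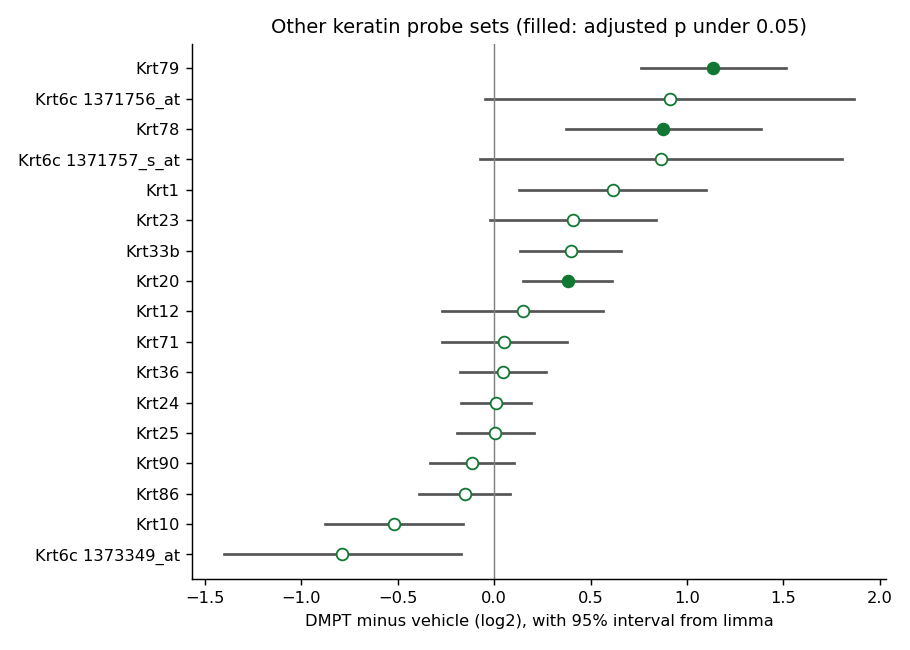
Difference between the groups (DMPT minus vehicle, log2) with 95% intervals of the limma fit for the 17 probe sets of other keratins. Krt79, Krt78 and Krt20 passed (filled), and the 3 Krt6c probe sets lay between -0.79 and 0.91.

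Genes that anchor, modify or regulate keratin filaments were examined as a list of 40 names, in which p63 stood under 2 names, and 34 were measured. Of these, 9 were higher, 3 lower and 22 did not pass, where 7.13% of all named genes were higher and 6.77% lower. The list was chosen with earlier results of these data known, so this contrast is not independent support. The median difference was 0.24, against -0.0052 over all named genes. Jup, which encodes plakoglobin of the desmosome plaque to which keratins attach, rose by 0.49 ± 0.08. Eppk1, which encodes epiplakin, a binding partner of keratin filaments, rose by 1.00 ± 0.14. Sfn, which encodes the stratifin protein that interacts with keratins of stratified epithelium, rose by 1.22 ± 0.16. Klf4, a transcription factor of squamous differentiation, rose by 1.04 ± 0.13, and Trim29, a gene of basal and stratified epithelium, by 0.95 ± 0.13. Tgm2, a transglutaminase, fell by 0.57 (limma, adjusted p = 0.00248). The adjusted p of the 5 genes that rose was between 0.000459 and 0.00216.

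Profiles most like those of 3 keratins were sought among all named genes by the root mean square distance over the 10 arrays, with each profile set to its own mean. Nearest to Krt4 were the fatty acid binding protein gene Fabp5 (distance 0.36), the sulfiredoxin gene Srxn1 (0.38) and the surface protein gene Psca (0.40), with differences of 2.85, 2.86 and 3.12. Nearest to Krt5 were Zfand5 (0.11), Xrn2 (0.13) and Sh3bp2 (0.13). Nearest to Krt8 were Eif4ebp2 (0.05), S100a16 (0.06) and the nuclear import gene Ipo5 (0.07). The distance includes the shift between the groups, so for all 3 keratins, Krt4 included, it favours genes with a similar shift. It also includes the spread within the groups. For genes with changes below 1 unit such as Krt5 and Krt8, a small distance can be met through a similar shift and a small spread alone.

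Markers of cell types that captured tissue can hold moved with the groups, and their part in the keratin differences was not tested. In captured tissue, more cells of a type and more RNA per cell cannot be told apart. The counts of each marker list stand against 7.13% of all named genes higher and 6.77% lower. These lists too were chosen with earlier results of these data known. Of 7 basal markers other than keratins, 2 were higher and 1 lower, with mean log2 levels of 10.49 to 10.92 with vehicle and 10.86 to 11.15 after DMPT. Only 4 of the 7 differences lay above 0, with a median of 0.17, and the largest, 1.96, weighs heavily in that mean. Ngfr, a receptor of basal cells, rose by 1.96 ± 0.17 (limma, adjusted p = 4.42e-05), from a vehicle mean of 6.11, below the lower quartile of every array, so that the size of its rise is uncertain. Dst, which anchors keratins at the hemidesmosome, fell by 0.39, and Tp63, the basal cell transcription factor, differed by 0.17 ± 0.24 (limma, adjusted p = 0.0168 and 0.735). Of 8 squamous markers, 2 were higher and 0 lower. Of 9 general epithelial markers, 1 was higher and 0 lower, and their mean level ran from 12.06 to 12.41 with vehicle and from 12.46 to 12.51 after DMPT, the lowest value being that of vehicle replicate 2.

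Of 7 ciliated cell markers, 6 were lower and 0 higher, with mean levels of 10.45 to 11.81 with vehicle and 9.06 to 10.65 after DMPT. Foxj1, the ciliary transcription factor, fell by 0.88 (limma, adjusted p = 0.0426). All 6 sustentacular and gland markers and 3 of 8 secretory markers were lower and 0 of either list were higher. The mean level of the first list was 11.03 to 12.09 with vehicle and 9.73 to 10.69 after DMPT, and that of the second was 9.68 to 10.51 and 9.16 to 10.13. Of 6 endothelial markers 4 were higher, with mean levels of 6.36 to 7.36 and 7.41 to 8.53, and Pecam1 rose by 1.15 ± 0.17 (limma, adjusted p = 0.00160) from a vehicle mean of 6.35, also below those lower quartiles. Of 7 stromal markers 1 was higher, and their mean levels were 10.33 to 11.02 and 10.44 to 11.33, with Col1a1 at -0.10 ± 0.18. Of 8 leukocyte markers 2 were higher and 3 lower, with mean levels of 8.93 to 9.21 and 8.79 to 9.26, and Ptprc differed by -0.18 ± 0.21. Of 6 olfactory neuron markers 1 was higher and 1 lower, with mean levels of 7.02 to 7.34 and 6.88 to 7.74. At an unadjusted limma p below 0.05, the secretory gene Muc5ac was higher, and the other counts of 0 given for these marker lists stayed at 0.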

How the data were processed

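The authors deposited 1 log2 value per probe set and array; the submitters' processing notes name RMA, the robust multi-array average, as the method, without a version. Any filter of probes was not stated. RMA corrects background, normalises the arrays together and summarises the probes of a set. Changes of very dim and very bright probe sets can be compressed on arrays, and this was not tested. The table held 31099 probe sets for 10 arrays, 1 per animal. After 57 control probe sets were set aside, 31042 were tested, of which 20826 had 1 gene symbol in the platform annotation. The Entrez identifiers of all 10 keratins were found in the RefSeq gene table, which changed 0 of their symbols. A gene with several probe sets was represented by the one with the highest mean. The number of arrays limits the precision.

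The comparison of the groups used lmFit and eBayes of limma 3.58.1 (R 4.3.3), two-sided, with Benjamini-Hochberg adjustment over all probe sets. In simulated data with 200 changed probe sets among 31042, the fit recovered 83.0% of the 100 changed by 1 log2 unit, with 11 false calls. The simulation drew independent noise, and its changes were of 1 or 2 units. It does not give the recovery of smaller differences, such as those of the keratins other than Krt4. The animals are separately numbered; p-values measure the spread between these animals. Named genes were the 10 keratins, the other keratins that passed, the 6 linker genes with the smallest p, the 3 nearest profiles of Krt4, Krt5 and Krt8, and 7 fixed marker genes. Krt6c, Krt1, Krt10, Krt33b, Muc5ac, Sprr1a, Dst and Tp63 were named after their values were seen. The members and lists were chosen with earlier results of these data known. Alternatives were the omission of each array, a replicate block, a filter on dim probe sets, an intensity trend, array weights, the RNA ratio in the model, median-centred arrays and the mean of a gene's probe sets.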

Additional observations from a re-analysis of the deposited data

Results flagged for a closer look

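Of 96 groups of 5 values checked for an animal far from the other 4 of its group, 8 were marked, where chance marks about 1 in 20. Krt19 was 11.99 in vehicle replicate 2, with the other vehicle arrays between 13.11 and 13.37. The Krt7 to Krt19 ratio of the same array was 1.44 above the vehicle mean, with the others between -0.45 and -0.24. Krt19 was 13.10 in DMPT replicate 5, with the others between 13.29 and 13.35. Krt5 was 12.86 in vehicle replicate 1, with the others between 12.45 and 12.55. Krt13 was 7.29 in vehicle replicate 4, with the others between 6.99 and 7.02. Krt78 was 7.73 in DMPT replicate 1, with the others between 6.46 and 6.72. Krt20 was 6.07 in vehicle replicate 1, with the others between 6.37 and 6.49. Srxn1 was 11.71 in DMPT replicate 5, with the others between 12.44 and 12.70.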

How the results depend on the processing

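The calls of Krt4, Krt5 and Krt8 were kept under all 18 alternatives, with differences of 2.80 to 3.26, 0.51 to 0.67 and 0.41 to 0.50. The number of higher keratins was between 3 and 5 and that of lower keratins was 0 in every alternative. The call of Krt7 was lost in 5 alternatives, and Krt13 passed in 1. Of the other 15 keratin genes, the number higher was 1 to 3 over the omissions of one array, and 1 once the RNA ratio was added to the model. The number lower was 1, Krt10, without vehicle replicate 4 and with array weights, and 0 in the other alternatives. The number of unequal pairs was between 5 and 7 over the omissions.

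With the replicate number as a block, 4 keratins were again higher, 2 other keratins were higher, and Krt1 passed (0.61, adjusted p = 0.0230), whereas Krt78 and Krt20 did not (adjusted p = 0.0639 and 0.0570). The numbers are not known to pair animals: same-numbered arrays correlated between -0.07 and 0.23 in their deviations from the group means. The intensity trend gave 2 other keratins higher, and the mean of a gene's probe sets and median-centred arrays gave 4 each, with Krt33b added (0.40 and 0.44). Over all probe sets, 1668 were higher and 1783 lower. The lower count was 1022 without DMPT replicate 3, 1147 without DMPT replicate 4, and 951 once the RNA ratio was added. The cause of these differences was not tested. Dim probe sets, such as Krt4, Krt78 and Krt20 with vehicle, limit the size that can be given to their rises.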

Other observations

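2 probe sets that the annotation gives to several hair keratins (Krt31, Krt33a, Krt33b and Krt34) were dim, with vehicle means of 4.88 and 6.18, and differed by 0.04 ± 0.14 and -0.06 ± 0.15 (limma, adjusted p = 0.895 and 0.859).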
